A study of Mus musculus with 35 samples.

Results

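The genes that encode the constitutive proteasome were followed through 35 RNA-seq libraries of mouse colon tumour organoids. They were taken as the protein-coding genes whose symbols begin with Psma, Psmb, Psmc or Psmd followed by a digit, without the immunoproteasome genes Psmb8, Psmb9 and Psmb10. This gave 37 of the 54354 genes in the count table. Of these, 36 encode proteasome subunits, tissue forms of subunits or chaperones of the regulatory particle. The other, Psmc3ip, shares the symbol pattern but encodes a partner of meiotic recombinases and is no part of the proteasome. In each experiment 35 of the 37 genes passed the filter on low counts: 34 subunit or chaperone genes and Psmc3ip, which is included in every count out of 35. Psma8, the testis form of an alpha subunit, had no count in any library. Psmb11, the thymus form of a beta subunit, had 1 count in 1 carmofur library and 1 in 1 palmitic acid control. Neither of these forms was tested.

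The proteasome degrades proteins marked with ubiquitin. Its barrel-shaped core particle is built from a pair of outer rings of alpha subunits, which gate the entrance, and a pair of inner rings of beta subunits, of which 3 kinds (Psmb5, Psmb6 and Psmb7) cut the peptide chain. The regulatory particle caps the barrel: ATPases of the base unfold the substrate, other base subunits bind ubiquitin and hold the scaffold, and the lid carries Psmd14, the enzyme that removes the ubiquitin chain. Cells make the subunits in matched amounts and are known to raise their genes together, through the transcription factor Nfe2l1, when proteasome activity is low.

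All organoids carried the genotype labelled AKP, which the labels do not spell out, came from colon tumour and were cultured in vitro. Palmitic acid, a saturated fatty acid and a precursor of ceramides, was given in 2 batches (3 libraries in batch 1 and 2 in batch 2), and both batches were compared with the 3 palmitic acid controls. The labels do not tie these controls to either batch, so a difference from them and a difference between batches cannot be told apart. Carmofur blocks ceramidases, the enzymes that break ceramides down, and is also known to release a fluorinated pyrimidine. It was given to 15 libraries and compared with 12 controls of its own. The series asked how transcription responds to the supply of fatty acid and to ceramide levels. Doses, times and separate cultures are not stated, so p-values measure the spread between libraries, which may be technical.

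Library totals ran from 2138905 to 2845017 counts in palmitic acid batch 1, from 2406582 to 3742289 in batch 2 and from 762888 to 2511723 in palmitic acid controls. They ran from 3127275 to 10609563 in carmofur libraries and from 1663750 to 8124707 in carmofur controls. All 11 epithelial markers examined were detected, but Cdx1 and Krt20 not in every library. Cdx1 was at 0 in 5 of 15 carmofur libraries and 3 of 12 carmofur controls. It was also at 0 in 2 of 2 batch 2 libraries and 1 of 3 palmitic acid controls. Of the immune markers 4 of 8 (Cd3e, Adgre1 and Csf1r among them), of the mesenchymal markers 4 of 9 (Col1a1, Col1a2, Lum and Pdgfrb) and of the endothelial and blood markers 4 of 5 were at 0 in all libraries. From the same lists the immune marker Cd68, the mesenchymal marker Vim and the endothelial marker Pecam1 were detected in every library. They reached 166, 78.3 and 21.6 CPM. By their numbers, the carmofur libraries and their controls form 9 sets of 3, 5 of carmofur and 4 of control, within 3 blocks of numbers. Block 1 holds 1 control set and 2 carmofur sets, block 2 the same, and block 3 a carmofur set between 2 control sets. The sets and blocks are read from the numbers and are not stated to be batches. Carmofur control 1 and carmofur libraries 8 and 10 were taken as standing apart from the others, and the values behind this choice are not given here.

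Promoter sequences are shown for Psma2 and Psma3, the subunit genes that fell with carmofur, and for Psmd14, the nearest to the threshold after them, so that the region upstream of genes with a like response can be read side by side. Each is the 250 bases before the RefSeq start on the plus strand (RefSeq, GRCm38.p6). Capitals mark a CCAAT box, read as ATTGG where it lies on the other strand, and a GC-rich element. The element is spelled GCGC, any base, T and again GCGC, and a nuclear respiratory factor is known to bind it. In Psma3 this element, too, lies on the other strand. The sequences are those of Psma2 at chr13:14612992-14613241, Psma3 at chr12:70974373-70974622 and Psmd14 at chr2:61711444-61711693.
Psma2: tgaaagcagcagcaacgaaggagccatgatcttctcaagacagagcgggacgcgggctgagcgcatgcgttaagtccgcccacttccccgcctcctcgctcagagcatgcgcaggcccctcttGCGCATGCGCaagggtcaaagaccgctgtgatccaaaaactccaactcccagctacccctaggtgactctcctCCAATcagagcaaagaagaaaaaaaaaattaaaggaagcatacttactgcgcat
Psma3: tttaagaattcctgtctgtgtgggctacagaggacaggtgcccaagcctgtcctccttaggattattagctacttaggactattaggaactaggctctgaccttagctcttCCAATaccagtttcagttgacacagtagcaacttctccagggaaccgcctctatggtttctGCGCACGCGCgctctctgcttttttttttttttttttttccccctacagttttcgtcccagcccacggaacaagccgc
Psmd14: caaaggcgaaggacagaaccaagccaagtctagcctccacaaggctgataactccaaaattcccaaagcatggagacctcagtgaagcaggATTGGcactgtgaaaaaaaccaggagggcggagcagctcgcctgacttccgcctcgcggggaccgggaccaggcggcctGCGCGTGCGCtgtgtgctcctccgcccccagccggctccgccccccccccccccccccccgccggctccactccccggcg
The element lay 127 to 118 bases before the start of Psma2, 78 to 69 bases before that of Psma3 and 80 to 71 bases before that of Psmd14. Searched on both strands, it was found in 6 of the 29 proteasome promoters in the table (20.7%; Psma2, Psma3, Psma4, Psmc4, Psmc5 and Psmd14), against 4.23% of the 27025 genes in the table. CCAAT was found in 12 of 29 (41.4%), against 37.5% of genes. The core of the antioxidant response element, TGACNNNGC, was found in 5 of 29 (17.2%), against 11.5% of genes. Psmc4 and Psmc5, which share the element with Psma2 and Psma3, had positive carmofur log2 fold changes that did not pass the threshold.

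The proteasome genes were abundant, taking 1.09% to 1.57% of the counts of a library, but their levels were far from equal. Levels are given as counts-per-million (CPM), scaled between libraries by the TMM method, and levels of different genes are compared as CPM per kilobase of the longest coding transcript, in the 12 carmofur controls. Psmb6, a catalytic beta subunit, stood first at 1572 ± 144 CPM per kb (SD), followed by Psma7 at 1358 ± 151, Psmb3 at 1067 ± 131 and Psmb2 at 929 ± 145. The lowest were Psmd1, a scaffold of the base, at 18.8 ± 6.07, the assembly chaperones Psmd9 at 7.14 ± 4.24 and Psmd5 at 5.48 ± 3.12, and the lid subunit Psmd3 at 2.44 ± 2.77 CPM per kb. The highest and lowest means were 644-fold apart, a range that rests on Psmd3, whose SD exceeds its mean. How transcripts were joined to genes is not given, and the part of that step in the low levels was not tested. Of the 33 pairs of neighbours in the order, 23 lay within 1 SD of each other. Psmb6 lay above Psma7, Psma7 above Psmb3 and Psmb2 above Psmb1 by more than 1 SD, whereas Psmb3 and Psmb2 did not separate.

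By subunit class, the median level was 591 CPM per kb over the 7 beta subunits, 383 over the 7 alpha subunits, 228 over the 6 ATPases, 68.9 over the 8 lid subunits, 43.7 over the 3 other base subunits and 7.14 over the 3 chaperones. Within the core the highest and the lowest level by this length were those of catalytic subunits. Psmb5 averaged 52.5 ± 21.8 CPM per kb and Psmb7 242 ± 31.4, against 1572 for Psmb6. The structural subunit Psmb4 was also low, with control set averages from 57.0 to 97.1 CPM. The Psmb6 level was 29.9 times that of Psmb5, or 12.8 times when the merged length of all exons was used. The size of this gap therefore depends on the length taken, and so does the lowest place in the core. Psmb5 spans 899 bases by either length, whereas Psmb4 spans 1183 by its longest transcript and 1951 merged. By merged length Psmb4, not Psmb5, is the lower of the pair. The rest of the order by merged length was not compared. Across 34 genes the log2 level had Pearson's r = -0.60 with log2 transcript length and -0.18 with GC content. These are descriptions over genes of the same libraries. The level is itself divided by that length, which pulls the r with length below 0, so no conclusion is drawn from that r. Spread between control libraries followed the level, with a median coefficient of variation of 13% for each of the core rings and 13.9% for the ATPases, against 25% for the lid, 27.7% for the other base subunits and 57.0% for the chaperones.

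With carmofur a pair of alpha-ring genes, Psma2 and Psma3, fell by 22.4% and 20.8%, and no other subunit gene passed the threshold, an adjusted p of 0.05. Psma2 had a lowest, median and highest level of 619, 815 and 1011 CPM in carmofur libraries, against 875, 1012 and 1283 CPM in controls. Every carmofur library lay below the control median, and 13 of 15 lay below all controls. Its log2 fold change was -0.37 ± 0.07 (SE), a fold of 0.776 (adjusted p = 0.000216, edgeR). Psma3 had 638, 845 and 1011 CPM in carmofur libraries, against 881, 1059 and 1239 CPM in controls. Here too all 15 carmofur libraries lay below the control median, and 10 lay below all controls. The log2 fold change of Psma3 was -0.34 ± 0.07, a fold of 0.792 (adjusted p = 0.00084).

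The averages of library sets gave the same separation. Psma2 averaged 881, 788, 738, 813 and 844 CPM in the 5 carmofur sets, and 981, 1090, 1102 and 1015 CPM in the 4 control sets. Psma3 averaged 838, 859, 853, 746 and 936 CPM in carmofur sets, and 1077, 1063, 1183 and 952 CPM in control sets. No carmofur set reached a control set for either gene. Such separation downwards was seen for 2 of the 35 genes tested (5.71%) and for 3.65% of all genes tested, and separation upwards for 0 of 35 and 5.05%. Both genes kept an adjusted p under 0.05 without the 3 libraries that stood apart and with each set left out in turn, with log2 fold changes from -0.41 to -0.34 for Psma2 and from -0.42 to -0.29 for Psma3. With the counts of each set summed to 1 sample, neither passed (Psma2 -0.35, adjusted p = 0.0726; Psma3 -0.34, adjusted p = 0.141).

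Psma2 lies on chromosome 13 (14613240 to 14674236, plus strand) and Psma3 on chromosome 12 (70974621 to 70996347, plus strand) in GENCODE M21 on mm10. Psma2 overlaps AW209491 on the same strand without a shared exon base. AW209491 averaged 68.4 ± 16.7 CPM in carmofur libraries and 81.1 ± 34.4 CPM in controls. Psma3 overlaps 3110056K07Rik on the opposite strand, which averaged 7.02 ± 5.34 CPM in carmofur libraries and 7.12 ± 4.54 CPM in controls. Pseudogenes were sought only by a proteasome symbol followed by -ps. Those found, Psma5-ps, Psmb5-ps, Psmb6-ps, Psmb6-ps2 and Psmb7-ps2, held 62, 3, 17, 53 and 0 counts over all 35 libraries. None is named as a copy of Psma2 or Psma3, and copies under other names were not searched.

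**Figure D1:**
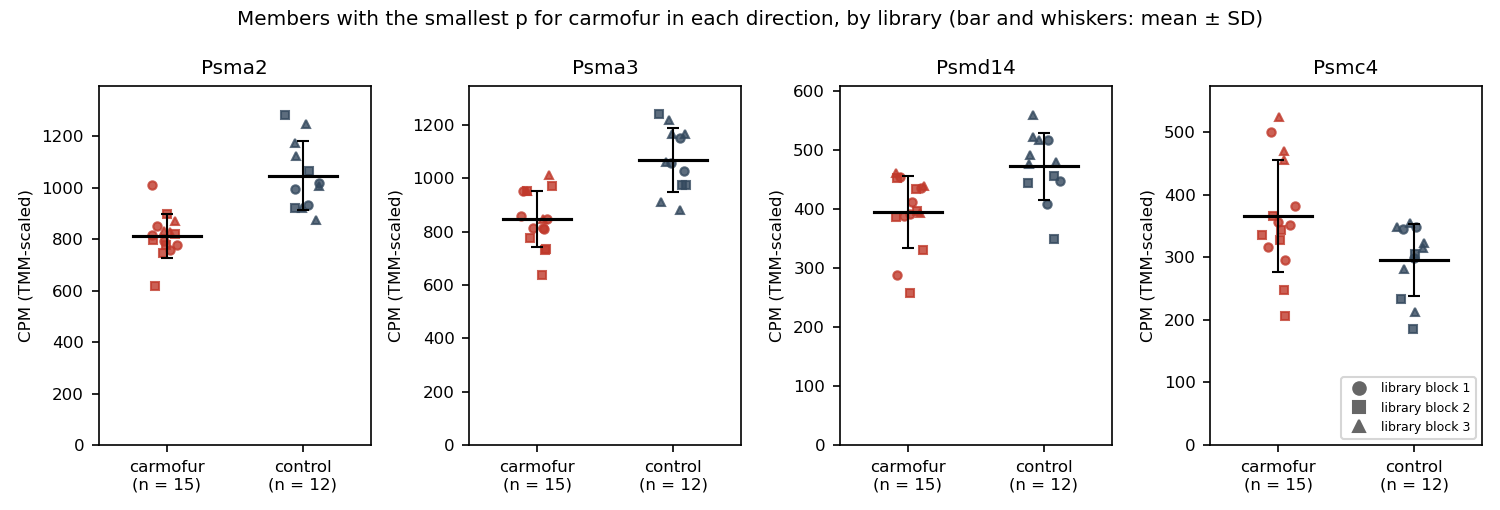
Level of Psma2, Psma3, Psmd14 and Psmc4 in each carmofur library (left) and carmofur control (right), in CPM. The bar is the mean with its SD and the marker shape gives the library block. For Psma2, 13 of 15 carmofur libraries lie below all controls, and for Psmc4 7 of 15 lie above all controls.

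No other gene of the alpha ring passed. All 7 alpha genes had a negative log2 fold change, but Psma7, the most abundant, averaged 1470 ± 173 CPM in carmofur libraries and 1571 ± 175 CPM in controls (log2 fold change -0.10, adjusted p = 0.508). Psma6 averaged 429 ± 74.5 CPM in carmofur libraries and 438 ± 67.4 CPM in controls (-0.03 ± 0.09, adjusted p = 0.938). Psma1, Psma4 and Psma5 lay between -0.13 and -0.07. Summed over the ring, the level was 4914 ± 435 CPM in carmofur libraries and 5570 ± 551 CPM in controls. In bulk RNA, fewer cells with a high level and less RNA per cell cannot be told apart.

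Of the 7 beta genes, 5 had a negative and 2 a positive log2 fold change and none passed. The catalytic subunits did not share a direction. Psmb7, the trypsin-like subunit, had 172, 234 and 315 CPM as its lowest, median and highest level in carmofur libraries, against 229, 280 and 346 CPM in controls. The groups overlapped, with 13 of 15 carmofur libraries below the control median (log2 fold change -0.24 ± 0.09, adjusted p = 0.103). Psmb6, the caspase-like subunit, had 928, 1132 and 1511 CPM in carmofur libraries, against 1023, 1228 and 1424 CPM in controls (-0.12 ± 0.07, adjusted p = 0.399). Psmb5, the chymotrypsin-like subunit that proteasome inhibitors of the clinic bind, had 33.9, 51.4 and 83.3 CPM in carmofur libraries, against 19.6, 45.2 and 88.1 CPM in controls (0.26 ± 0.20, adjusted p = 0.574). Over all blocks the carmofur range of Psmb5 lay inside that of controls, but blocks differed. In block 1 carmofur libraries lay above all controls, at 51.4 to 83.3 CPM against 22.6 to 45.2 CPM (adjusted p = 0.159, edgeR). The Psmb5 means were 49.1 CPM with carmofur and 63.1 CPM in controls in block 2, and 45.9 and 44.7 CPM in block 3. The structural subunits Psmb1 (1080 ± 84.6 CPM in carmofur libraries, 1164 ± 104 CPM in controls) and Psmb2 (830 ± 183 CPM in carmofur libraries, 798 ± 125 CPM in controls) had log2 fold changes of -0.11 and 0.06, and Psmb4 had -0.16 ± 0.18.

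The ATPases of the base went both ways, 3 negative and 3 positive. Psmc4 had 207, 352 and 524 CPM in carmofur libraries, against 185, 310 and 355 CPM in controls, and 7 of 15 carmofur libraries lay above all controls (log2 fold change 0.30 ± 0.12, adjusted p = 0.126). Psmc3 had 189, 380 and 543 CPM in carmofur libraries, against 328, 399 and 510 CPM in controls, a wider spread with carmofur at both ends (-0.26 ± 0.13, adjusted p = 0.261). Psmc1 lay nearest to 0, at 696 ± 113 CPM in carmofur libraries and 694 ± 75.4 CPM in controls (0.00 ± 0.08, adjusted p = 0.988). Neither Psmc4 nor Psmc3 passed, but each did under some other settings. With the block as a covariate Psmc4 was higher by 0.38 (adjusted p = 0.013), and without the 3 libraries that stood apart by 0.41 (adjusted p = 0.0148). Psmc3 was called in neither of these fits, but fell without the carmofur set of block 3 (-0.39, adjusted p = 0.0361).

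In the lid, Psmd14 (chromosome 2, 61711694 to 61800376, plus strand) came closest to the threshold. This deubiquitinase had 257, 396 and 462 CPM in carmofur libraries, against 349, 479 and 559 CPM in controls. All 15 carmofur libraries lay below the control median, 3 of them below all controls (log2 fold change -0.26 ± 0.09, adjusted p = 0.0553). It passed with RLE scaling (adjusted p = 0.0411), with DESeq2 (0.0248) and with limma-voom (0.0482), and so stands at the edge of the threshold. The other lid genes lay between -0.28 (Psmd6) and 0.00 (Psmd3). Psmd3 had few counts, with a median of 4.41 CPM in carmofur libraries and 3.02 CPM in controls. Its standard error of 0.60 leaves its difference undetermined at this depth. The base subunits Psmd1, Psmd2 and Psmd4 and the chaperones Psmd5, Psmd9 and Psmd10 lay between -0.17 and 0.23, with standard errors from 0.12 to 0.36.

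Across the 35 genes tested, 2 were lower (5.71%) and none higher. Of all 9992 genes tested, 901 (9.02%) passed, 5.21% higher and 3.80% lower, so the share past the threshold lies near the background. At an unadjusted p under 0.05 there were 6 of the 35 (17.1%), 1 higher and 5 lower, against 19% of all genes (1 of 35 against 10.5% higher, 5 of 35 against 8.47% lower). DESeq2 called 4 lower. No gene of the set had all carmofur libraries beyond all controls, as 0.59% of all genes had on the higher and 0.17% on the lower side. The direction was less even: 27 of 35 (77.1%; 26 of the 34 without Psmc3ip) had a negative log2 fold change, against 49.8% of all genes, with a median of -0.11 against 0.00. The measurement was also tight. The 95% interval of the fold lay within 1.5-fold either way for 82.9% of the 35, against 17.1% of all genes, and within 2-fold for 97.1%, against 41.7%. 

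**Figure D2:**
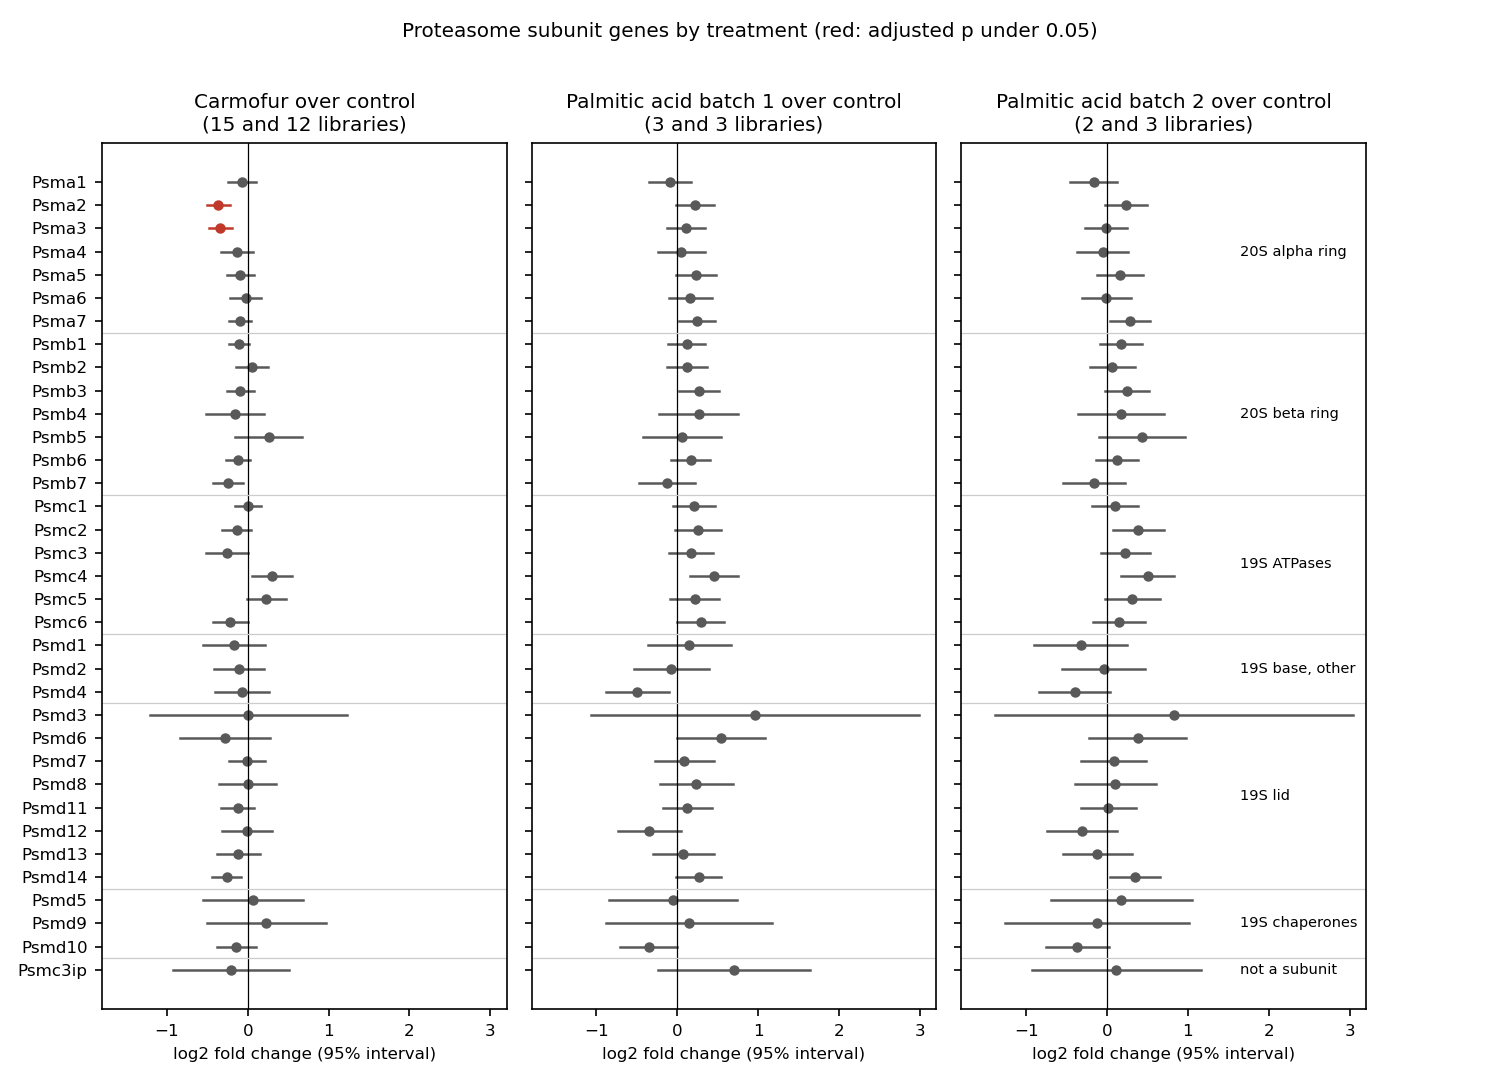
Log2 fold change of each proteasome gene with its 95% interval, for carmofur, palmitic acid batch 1 and palmitic acid batch 2, each over its controls, grouped by subunit class. Red marks an adjusted p under 0.05. Psma2 and Psma3 are marked with carmofur and none with palmitic acid; most points lie left of 0 with carmofur and right of 0 in batch 1.

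The carmofur difference of several subunit genes was not the same in the 3 library blocks. A test of this difference was chosen after the values by block were seen. It passed for 4 of the 35 genes (11.4%), Psmc3, Psmb6, Psmc5 and Psmd4, against 178 of 9992 genes (1.78%). At an unadjusted p under 0.05 it held for 12 of 35 (34.3%), against 11.6%. The share was above the background at both thresholds, but no proteasome gene passed once the 3 libraries that stood apart were left out, when 105 genes still passed. Among those 3, carmofur libraries 8 and 10 belong to block 2. They had the lowest summed ATPase levels of the carmofur experiment, 1792 and 1872 CPM.

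Psmc3, an ATPase, averaged 387, 237 and 462 CPM in the carmofur libraries of blocks 1, 2 and 3, against 395, 416 and 412 CPM in the controls of the same blocks. In block 2 the groups were apart, at 189 to 284 CPM in carmofur libraries and 391.8 to 439 CPM in controls. The log2 fold change within blocks was -0.05 (adjusted p = 0.951), -0.80 (0.00902) and 0.15 (0.785), and the difference between blocks had an adjusted p of 0.0107. Psmc3 shares 215 exon bases with Slc39a13 on the opposite strand, which held 132 counts over all 35 libraries.

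Psmb6 averaged 1134, 1013 and 1461 CPM in the carmofur libraries of blocks 1, 2 and 3, against 1192, 1323 and 1251 CPM in controls. Carmofur libraries were below all controls in block 2 and overlapped them in blocks 1 and 3. No block gave a call of its own (adjusted p from 0.0584 to 0.757), while the difference between blocks had an adjusted p of 0.0239. Psmc5, another ATPase, averaged 368, 316 and 564 CPM in carmofur libraries, against 320, 344 and 327 CPM in controls. Its carmofur libraries lay above all controls in block 3, at 552 to 572 CPM against 293 to 372 CPM (log2 fold change 0.77, adjusted p = 0.000883; difference between blocks, adjusted p = 0.0440). Psmd4, a ubiquitin receptor of the base, averaged 158, 83.2 and 105 CPM in carmofur libraries, against 153, 153 and 94.6 CPM in controls. It was lower in block 2, at 68.3 to 109 CPM in carmofur libraries and 116 to 174 CPM in controls (-0.87, adjusted p = 0.0459; difference between blocks, adjusted p = 0.0490).

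Within block 1, Psma3 alone passed among the proteasome genes (234 genes, 2.15% of all tested), and 17 of 35 were negative. Within block 2, Psma2, Psmc3 and Psmd4 were lower (512 genes, 4.75%), and 31 of 35 were negative, with a median of -0.26 against 0.06 for all genes. Within block 3, Psmc4 and Psmc5 were higher (588 genes, 5.33%), and 22 of 35 were positive. Psma2 and Psma3 were negative in all 3 blocks. Psma2 had log2 fold changes of -0.25, -0.48 and -0.34 (adjusted p = 0.235, 0.0455 and 0.142), and Psma3 of -0.36, -0.40 and -0.21 (0.0357, 0.140 and 0.491). Fewer libraries enter each of these fits.

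**Figure D3:**
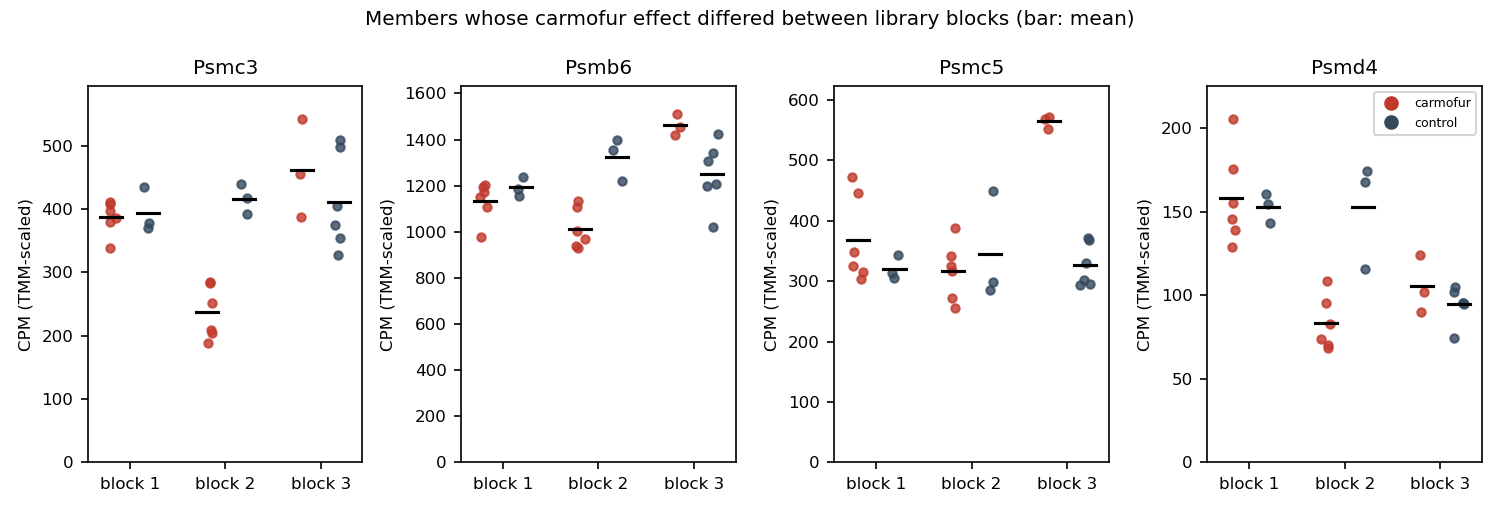
Level of Psmc3, Psmb6, Psmc5 and Psmd4 in each library by library block, carmofur left of control in each block, in CPM. Bars are means. In block 2 the carmofur libraries of Psmc3, Psmb6 and Psmd4 lie below all controls, and in block 3 those of Psmc5 lie above all controls.

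Summed over the 36 proteasome genes, the level was 13378 ± 1350 CPM in carmofur libraries (11388 to 15662) and 14481 ± 1044 CPM in carmofur controls (13076 to 16153), with overlapping ranges. By block the carmofur libraries averaged 13407, 12277 and 15523 CPM, and the controls 13893, 14564 and 14733 CPM. The control sets of block 3 alone averaged 15683 and 13784 CPM. In block 2 the sum of the immune markers was 102 CPM (54.9 to 166) in carmofur libraries and 63.1 CPM (35.1 to 93.2) in controls. In blocks 1 and 3 it was 20.02 and 41.1 CPM in carmofur libraries, against 36.7 and 50.0 CPM in controls. Carmofur control 6, of block 2, had the highest immune sum of the controls, 93.2 CPM, and their highest proteasome sum, 16153 CPM. Nearly all of the immune sum was Cd68, a lysosomal membrane protein. The other immune markers detected were under 6 CPM in every library of this experiment. The epithelial sum was 2124 ± 318 CPM in carmofur libraries and 2114 ± 359 CPM in controls of block 2. Of the 10 epithelial markers tested over all blocks, Krt20, a keratin of differentiated colon cells, passed and was higher, at 30.5 CPM (13.6 to 53.1) in carmofur libraries and 4.24 CPM (0 to 11.5) in controls (log2 fold change 2.82 ± 0.51, adjusted p = 0.000101). The part of these markers in the result was not tested.

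With palmitic acid no proteasome gene passed the threshold in either direction. In batch 1, 0 of 35 passed by edgeR, DESeq2 or limma-voom, where 55 of 9845 genes (0.559%) passed by edgeR. At an unadjusted p under 0.05 there were 6 of the 35 (17.1%), against 7.73% of all genes. Of these 4 were higher (11.4%, against 4.23%) and 2 lower (5.71%, against 3.5%). Of the 35, 28 (80.0%) had a positive log2 fold change (27 of the 34 without Psmc3ip), against 51.3% of all genes, with a median of 0.16 against 0.01. The 95% interval lay within 2-fold either way for 88.6% of them and for 30.5% of all genes.

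Psmc4 had the lowest p of the set. It had 368, 335 and 349 CPM in batch 1, against 245, 232 and 291 CPM in controls, with no overlap (log2 fold change 0.45 ± 0.15, adjusted p = 0.214). All 6 ATPases were positive, with a median of 0.23. Psmd4 went the other way, with 109, 120 and 146 CPM in batch 1, against 200, 135 and 196 CPM in controls (-0.50 ± 0.20, adjusted p = 0.440). Here 1 control lay among the batch 1 libraries.

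In the core, Psma2 had 1286, 1241 and 1271 CPM in batch 1, against 1039, 1173 and 1060 CPM in controls (0.21 ± 0.12, adjusted p = 0.693). Psma3 had 1178, 1164 and 1161 CPM in batch 1, against 996, 1047 and 1199 CPM in controls (0.11 ± 0.12, adjusted p = 0.920). Psma2 lay above all controls and Psma3 overlapped them. Psmb6 had 1253, 1250 and 1193 CPM in batch 1, against 964, 1179 and 1153 CPM in controls, again without overlap (0.16 ± 0.12, adjusted p = 0.821). Psmb5 had 62.5, 75.7 and 105 CPM in batch 1, against 110, 55.2 and 74.7 CPM in controls, and Psmb7 had 216, 204 and 238 CPM, against 342, 187 and 201 CPM. For both, the control library of lowest depth, control 1, was the highest of the 6. Psmd14 had 492, 458 and 474 CPM in batch 1, against 343, 341 and 496 CPM in controls (0.27 ± 0.14, adjusted p = 0.671), and 1 control lay above all of batch 1.

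Batch 1 lay above all controls for 10 of 35 genes (28.6%), against 6.92% of all genes, and below them for 1, Psmd10 (2.86%, against 6.12%). Without control 1, the shallowest, the higher share was 11 of 35 (31.4%) against 9.65%, and the lower 1 of 35 against 9.51%. The 10 genes were Psma2, Psma5, Psma7, Psmb3, Psmb6, Psmc1, Psmc2, Psmc4, Psmc6 and, besides the 9 subunit genes, Psmc3ip. The summed level was 15370 ± 250 CPM in batch 1 (15124 to 15622) and 13814 ± 747 CPM in controls (13095 to 14587), without overlap. The sum of the alpha ring was 6177 ± 149 CPM in batch 1 and 5529 ± 160 CPM in controls. The summed epithelial markers were 1260 ± 52.6 CPM in batch 1 and 1392 ± 28.0 CPM in controls, whose part in the result was not tested.

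**Figure D4:**
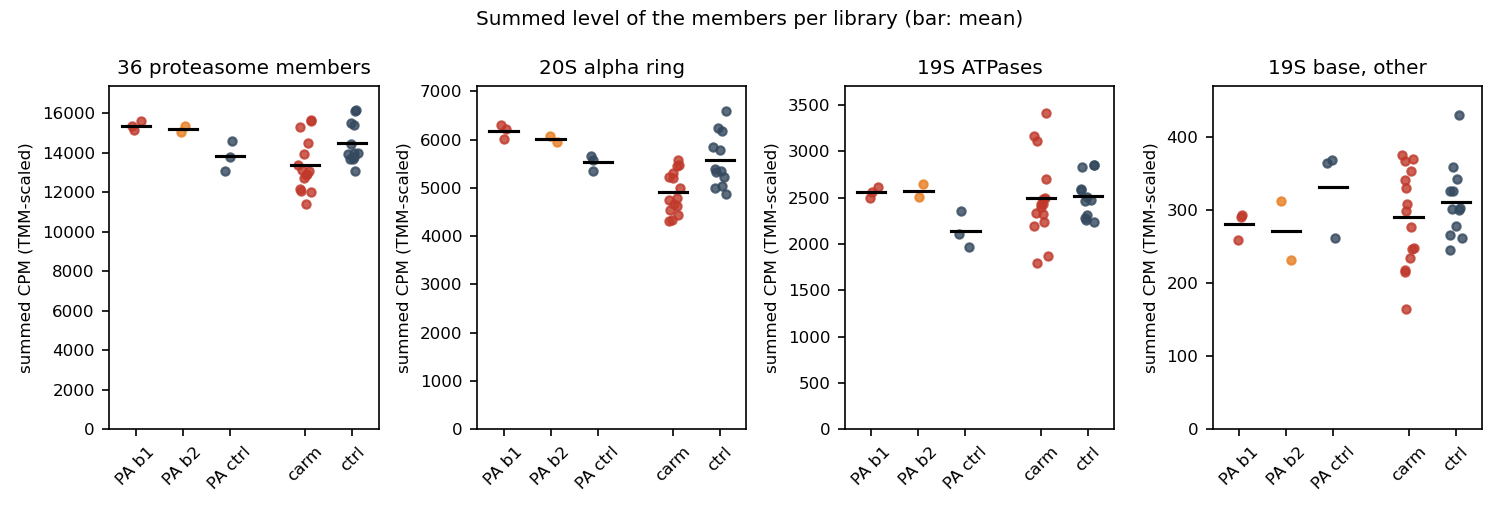
Summed level of the 36 proteasome genes, the alpha ring, the ATPases and the other base subunits in each library, in CPM, for palmitic acid (PA) batch 1, batch 2 and their controls, and for carmofur (carm) and its controls. Bars are means. Batch 1 lies above its controls in the sum of all 36 genes, at 15124 to 15622 CPM against 13095 to 14587 CPM, while the carmofur groups overlap.

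Batch 2 was compared with the same 3 controls and is not an independent repeat. Here 0 of 35 genes passed, against 32 of 9845 (0.325%), and 23 of 35 (65.7%) were positive, against 49.1%. At an unadjusted p under 0.05 there were 4, all higher (11.4%, against 3.81% of all genes higher and 7.1% in either direction). Psmc4 had 343 and 384 CPM in batch 2, against 245, 232 and 291 CPM in controls (log2 fold change 0.50 ± 0.16, adjusted p = 0.247). Psmd14 had 473 and 532 CPM in batch 2, against 343, 341 and 496 CPM in controls (0.35 ± 0.16, adjusted p = 0.618). Both batch 2 libraries lay above all controls for Psmc4, but not for Psmd14. Psma2 had 1295 and 1266 CPM in batch 2 and Psma3 1120 and 1026 CPM, with log2 fold changes of 0.23 ± 0.13 and -0.01 ± 0.13. Batch 2 lay above all controls for 7 of 35 genes (20%), against 10.9%, and below them for 1 (2.86%, against 9.02%). Between batch 2 and batch 1 no proteasome gene passed, and none had an unadjusted p under 0.05, where 10 genes (0.102%) passed and 2.37% had an unadjusted p under 0.05. The summed level in batch 2 was 15026 and 15328 CPM.

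Whether carmofur and palmitic acid batch 1 differed in their effect was tested over all 35 libraries. No proteasome gene passed by edgeR, against 97 of 14052 genes (0.690%). At an unadjusted p under 0.05 there were 4, all lower with carmofur relative to palmitic acid (11.4%, against 2.31% of all genes lower and 6.68% in either direction): Psma2, Psma3, Psmd14 and Psma7. Psma2 had the largest of these differences at -0.57 ± 0.16 on the log2 scale (adjusted p = 0.0835). It passed with DESeq2 (adjusted p = 0.0055) and with limma-voom (0.0104). By edgeR it did not pass with RLE or library-size scaling, with the other filters or with the replicate number as a block. Nor did it pass in the 6 edgeR fits with a palmitic acid library left out (adjusted p from 0.129 to 0.318). The difference was -0.44 for Psma3 (adjusted p = 0.407), -0.51 for Psmd14 (0.475) and -0.32 for Psma7 (0.681). The controls of the experiments were separate libraries.

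Genes around the proteasome were read from a list of 57, of which 54 passed the filter. With carmofur Ubb, a polyubiquitin gene, rose to a lowest, median and highest of 3729, 4090 and 4852 CPM in carmofur libraries, against 3069, 3570 and 4125 CPM in controls (log2 fold change 0.23 ± 0.06, adjusted p = 0.00363), and all 15 lay above the control median. Ubb holds ubiquitin repeats that other genes share, so its counts are uncertain. With library sets summed Ubb did not pass (adjusted p = 0.254), nor did it without the control set of block 1 (0.0531) or that of block 2 (0.0678). Within blocks 1, 2 and 3 it passed in each (adjusted p = 0.0362, 0.0399 and 0.0318).

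No regulator passed. Nfe2l1, the factor known to raise proteasome genes when activity is low, averaged 11.8 ± 6.07 CPM in carmofur libraries and 11.5 ± 5.50 CPM in controls (0.04 ± 0.38, adjusted p = 0.980). Nfe2l2, a stress factor, averaged 157 ± 35.01 CPM in carmofur libraries and 136 ± 30.7 CPM in controls (0.21 ± 0.13, adjusted p = 0.427). Pomp, which matures the core, averaged 1221 ± 146 CPM in carmofur libraries and 1208 ± 93.9 CPM in controls (0.02 ± 0.06, adjusted p = 0.950). Sqstm1, a receptor that delivers ubiquitylated cargo to autophagy, averaged 54.2 ± 18.8 CPM in carmofur libraries and 80.2 ± 26.8 CPM in controls (-0.57 ± 0.20, adjusted p = 0.0698), and Txnl1, a thioredoxin of the regulatory particle, 49.5 ± 12.4 CPM in carmofur libraries and 74.4 ± 32.6 CPM in controls (-0.59 ± 0.21, adjusted p = 0.0777). Without the 3 libraries that stood apart both fell (adjusted p = 0.0146 for Sqstm1 and 0.0202 for Txnl1), as they did without the control set of block 1 (0.0366 and 0.0165), and Sqstm1 also without 1 carmofur set of block 2 (0.0207).

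Of the 3 immunoproteasome genes only Psmb10 passed the filter in the fits of each experiment. In the fit over all 35 libraries 2 passed it, and neither differed in its effect (lowest adjusted p = 0.974). Psmb10 averaged 53.0 ± 15.2 CPM in carmofur libraries and 41.1 ± 23.4 CPM in controls (0.37 ± 0.23, adjusted p = 0.435). Without the control set of block 2 it passed as higher (0.86 ± 0.22, adjusted p = 0.00828), and within blocks 1, 2 and 3 its log2 fold change was 0.91, -0.68 and 0.94, none past the threshold. Psmb8 and Psmb9 were not tested within either experiment. Psmb9 reached 6.60, 5.76, 5.34 and 2.66 CPM in carmofur libraries 4, 12, 10 and 9. In carmofur controls it reached at most 0.511 CPM. With palmitic acid none of the 54 genes passed in either batch. Gabarap, an autophagosome protein, had the lowest adjusted p, with log2 fold changes of 0.55 in batch 1 (adjusted p = 0.213) and 0.69 in batch 2 (0.121). Ubb had 0.25 (0.587) and 0.35 (0.402), and Nfe2l1 -0.75 (0.740) and -0.48 in batches 1 and 2. Without palmitic acid control 3, Gabarap (0.87, adjusted p = 0.0276) and Ubb (0.54, 0.0211) were higher in batch 2. Psmc3ip, which is no subunit, averaged 30.5 ± 20.3 CPM in carmofur libraries and 35.03 ± 13.05 CPM in controls (-0.20 ± 0.35, adjusted p = 0.857).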

How the data were processed

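Directional libraries (NEBNext Ultra II) were made from poly(A)-selected RNA after TRIzol and PureLink extraction, per the labels' protocols. The authors deposited 1 table of estimated counts per gene for 35 libraries, made with Salmon 1.3.0 on mm10 per the submitters' processing notes. The values are whole numbers. How transcripts were joined to genes, and on which annotation, is not given in the sources used here. There are 54354 genes in it (1243 unnamed) and 0 value columns of other samples.

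Tests used edgeR 4.0.16 in R 4.3.3: TMM scaling, the default filter by group, robust quasi-likelihood F tests and Benjamini-Hochberg adjustment over all genes tested, with a threshold of 0.05. Palmitic acid (8 libraries), carmofur (27) and all 35 libraries were fitted separately. Standard errors divide the log2 fold change by the root of F. CPM (counts-per-million) are TMM-scaled and taken over genes that passed the filter. Their precision is set by library depth, and intervals across libraries include the spread between them. Lengths and positions come from GENCODE M21, and promoters from RefSeq (29 of 36 genes matched).

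The members, lists and tests were chosen with earlier results of these data known. Named genes are members past the threshold, the catalytic subunits, Psmd14, the 2 lowest and the highest p of each class, members not tested, Psmc3ip, other pathway genes past the threshold or with the 2 lowest p of their list, and Nfe2l1, Nfe2l2, Pomp, Psmb8, Psmb9 and Psmb10. Psma1, Psma4, Psma5, Psma7, Psmb3, Psmc2, Psmc5, Psmc6 and Psmd6 were named after their values were seen. Some genes of the lists are not reported here. Alternatives were RLE scaling, library-size scaling, DESeq2 1.42.0, limma 3.58.1 voom, no filter, a mean count of at least 10, libraries or sets left out, sets summed, blocks and the replicate number. Replicates within groups were no duplicates (lowest chi-square per degree of freedom 7.40 over 178 pairs). Scripts were tested on simulated data.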

Additional observations from a re-analysis of the deposited data

Results flagged for a closer look

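The carmofur difference of 4 proteasome genes was not the same in the 3 library blocks, by a test of the difference itself over the 27 carmofur libraries. The adjusted p of that difference was 0.0107 for Psmc3, 0.0239 for Psmb6, 0.0440 for Psmc5 and 0.0490 for Psmd4. The log2 fold change of block 2 minus that of block 1 was -0.78 for Psmc3, -0.31 for Psmb6, -0.32 for Psmc5 and -0.93 for Psmd4. Block 3 minus block 1 gave 0.20 for Psmc3, 0.30 for Psmb6, 0.59 for Psmc5 and 0.11 for Psmd4. Without the 3 libraries that stood apart, carmofur 8 and 10 of block 2 among them, none of the 4 passed. With no filter on low counts only Psmc3 passed, and with RLE scaling or a mean count of at least 10 Psmd4 did not. With voom Psmb4 passed in its place.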

How the results depend on the processing

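Psma2 and Psma3 stayed lower with carmofur under the other scalings, tests and filters and with each library set left out, and lost the call with sets summed, when 0 proteasome genes were lower. The count of lower genes (2) was 4 with DESeq2, 1 within block 1, 0 within block 3, and 2 to 5 with a set left out, where 5 came without the carmofur set of block 3 (Psma2, Psma3, Psmb6, Psmc3 and Psmd14). The count of higher genes (0) was 1 with voom, without the 3 libraries apart and with block as a covariate, 2 within block 3, and 0 to 1 with a set left out. For the difference of the effects 1 gene was lower with DESeq2 and with voom. The count of genes whose carmofur difference varied between blocks (4) was 1 with no filter and 0 without the 3 libraries apart. Among named genes with an unadjusted p under 0.05 over all blocks, the direction turned for Psmg3 (0.17) and Txnl1 (0.10) within block 1, and for Psmc3 (0.15), Gabarap (-0.0099) and Gabarapl2 (-0.11) within block 3; the cause was not tested. Of the 34 subunit genes 9, 8 and 16 had within blocks 1, 2 and 3 the opposite sign to that over all blocks. With merged exon lengths the median level was 101 CPM per kb in carmofur libraries, 112 in carmofur controls, 110 in batch 1, 112 in batch 2 and 110 in palmitic acid controls, against 188, 205, 205, 213 and 174 with the longest transcript, since the length is larger.

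The median log2 fold change of the proteasome genes ran from -0.26 to 0.03 over the carmofur alternatives, from 0.12 to 0.19 in batch 1 and from 0.09 to 0.15 in batch 2, and no palmitic acid alternative called a proteasome gene. Of all genes, carmofur called 901, against 3541 with no filter, 334 with sets summed and 234, 512 and 588 within blocks. Batch 1 called 55, against 21 to 33 with a batch 1 library left out. Batch 2 called 32, against 55 with DESeq2 and 70 with batches merged. Batch 2 against batch 1 called 10, against 19 with no filter and 2 to 6 with a library left out. The difference of the effects called 97, against 204 with DESeq2, 239 with voom and 22 to 50 with a library left out. The variation between blocks called 178, against 94 with no filter and 105 without the 3 libraries apart.

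Replicate numbers shared by the groups did not pair the libraries (correlation of deviations from -0.02 to 0.05). With the replicate number as a block, carmofur called 799 genes, among them Psma2, Psma3 and Psmc3 (-0.43, adjusted p = 0.0213), batch 1 called 42, batch 2 28, batch 2 against batch 1 8, and the difference 56.

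Depth limits the low genes: Psmd3, Psmd5 and Psmd9 have standard errors of 0.60, 0.31 and 0.36 with carmofur. Small changes in palmitic acid groups of 2 or 3 libraries cannot be told from none.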
